A study of Mus musculus with 35 samples.

Results

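The comparison described here set colons of axenic mice that had received intestinal flora from Reg3a-transgenic donors against colons of axenic mice that had received flora from wild-type donors, all of them then given dextran sulfate sodium (DSS). Its members were chosen by sample title and are 10 of the 35 arrays of the series, 5 mice with transgenic flora (TG922, TG749, TG713, TG632 and TG446) and 5 mice with wild-type flora (WT880, WT793, WT639, WT597 and WT098). Both groups were C57BL/6N mice that were transplanted, given 3% DSS in the drinking water for 5 days starting 3 weeks later, returned to plain water and sampled at day 12. Mice are named by the ends of their titles, in which TG and WT stand for the flora donor. Another 5 axenic mice given 3% DSS for 5 days, the controls (CT677, CT517, CT465, CT229 and CT093), are shown beside them. The label of these controls places DSS ahead of a microbial transfer, so whether they carried flora, and how their sampling day relates to it, is not stated. Conventional Reg3a-transgenic mice under DSS and conventional wild-type mice under DSS (5 each) served as a separate comparison that shares no array with the flora groups. These conventional mice were given 3% DSS for 5 days and sampled at day 12. The treatment label of the conventional transgenic mice also speaks of a transfer, whereas their titles and missing axenic phenotype do not, and the titles were followed. Total RNA of 1 colon piece per mouse (200 ng) was hybridised to Affymetrix Mouse Gene 1.0 ST arrays, and all values are log2 signal. Not given in the sources used here are the recipients' genotype, the transgene's species and promoter, and the sex, age, cage and batch of the mice. Each value therefore describes the recipient's tissue after 1 donor genotype's flora, and the labels do not say how many donors were used or whether the 5 recipients of a group shared a cage.

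Axenic mice are raised without microbes, and their gut epithelium and lymphoid tissue mature only after colonisation. DSS injures the colon epithelium, lets bacteria reach the tissue and causes colitis, which is followed by crypt repair. The product of Reg3a is a C-type lectin that gut epithelium and pancreas secrete and that binds bacterial cell walls. Flora transfer into axenic hosts is the usual way to ask which part of a donor's trait travels with its microbes.

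Signal of the 19908 genes gave no gene that passed in limma's moderated test (0 genes at Benjamini-Hochberg adjusted p under 0.05, 0.0% of those tested, n = 5 mice each). The smallest adjusted p was 0.0695, and it was shared by 823 genes. At unadjusted p under 0.05 there were 2710 higher genes (13.6%) and 4146 lower genes (20.8%). All 5 transgenic-flora mice read above all 5 wild-type-flora mice for 594 genes (2.98%) and below them for 886 genes (4.45%). Sizes were small, since 22 genes differed by at least 2-fold upwards and 59 downwards, with a median standard error of 0.13 over genes. The call of 0 genes depended on single mice and on their weights. It became 4700 genes (1789 higher, 2911 lower) without transgenic-flora mouse TG749 and 149 (9 higher, 140 lower) without wild-type-flora mouse WT793. It became 4886 (1777 higher, 3109 lower) with limma's array weights, which gave transgenic-flora mouse TG922 a weight of 0.146. Because none passed, values are given below without calling any single gene changed.

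The arrays of the 2 groups differed in spread. The standard deviation over all 28090 probe sets of an array was 1.66, 1.94, 1.86, 1.85 and 1.86 in transgenic-flora mice TG922, TG749, TG713, TG632 and TG446, against 1.90, 1.98, 1.91, 2.03 and 1.99 in wild-type-flora mice WT880, WT793, WT639, WT597 and WT098. Only mouse TG749 of the transgenic-flora group reached into the range of the other group. The means were 1.83 ± 0.10 and 1.96 ± 0.06 (SD, n = 5 each), a difference of -0.13 (exact permutation p = 0.0238, two-sided over all assignments of the 10 mice, adjusted p = 0.0476 over 2 array measures). Axenic controls had an SD of 1.64 to 1.78. The change between the groups followed signal level. The median change was 0.13, 0.20, 0.21, 0.17 and 0.09 in the 5 dimmest deciles of genes and -0.05, -0.21, -0.32, -0.37 and -0.33 in the 5 brightest. The share of genes reading higher with transgenic flora was 89.2% in the dimmest decile and 7.53% in the brightest. Forcing the 10 arrays onto 1 distribution (quantile normalization) brought these medians to between -0.07 and 0.04. It left 1833 higher genes (9.21%) and 2045 lower genes (10.3%) at unadjusted p under 0.05, none of them passing in limma (smallest adjusted p = 0.174). Non-overlapping genes then numbered 457 higher (2.3%) and 382 lower (1.92%), of which 231 and 203 were non-overlapping on the deposited scale too. In all, 5292 genes changed sign. For that reason most changes below are followed by their quantile-normalized value, named as such, and lists are set beside all genes of their own signal decile. Genes named from a list are mostly its members with the smallest p, and so more extreme than the list as a whole.

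**Figure D1:**
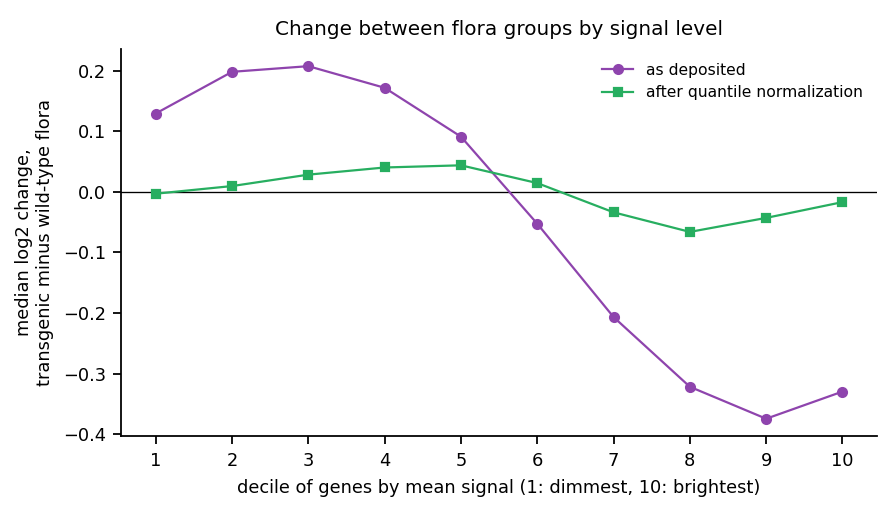
Median log2 change (y axis), transgenic-flora minus wild-type-flora mice, in deciles of the genes ordered by mean signal (x axis, 1 the dimmest), for values as deposited (circles) and after quantile normalization (squares). The deposited medians run between 0.21 in decile 3 and -0.37 in decile 9, whereas the quantile-normalized medians stay between -0.07 and 0.04.

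Digestive enzymes of the exocrine pancreas were read at high levels in some colons and followed single mice. The mean of 19 pancreatic genes was 8.44, 6.36, 6.45, 8.24 and 8.97 in the transgenic-flora mice, against 6.75, 9.25, 10.34, 10.11 and 10.17 in the wild-type-flora mice. Wild-type-flora mouse WT880 thus read as low as the axenic controls (6.57 to 8.04), and the other 4 of its group read above every transgenic-flora mouse. The group means were 7.69 ± 1.21 and 9.32 ± 1.50 (SD, n = 5 each), a difference of -1.63 (exact permutation p = 0.103). The difference was -2.27 without mouse WT880, the low one of its group (exact permutation p = 0.0159, the smallest that 5 against 4 mice can give), and without any of the other 9 mice the exact permutation p lay between 0.0635 and 0.206. Cpb1, a pancreatic carboxypeptidase, read 9.38, 5.80, 6.16, 10.13 and 11.17 with transgenic flora and 5.97, 11.10, 12.08, 11.95 and 12.13 with wild-type flora. Try10 (trypsin, -2.35, quantile-normalized -2.16) and Cela3b (elastase, -2.06, quantile-normalized -1.73) ran the same way, and Prss2 differed by -1.55 (quantile-normalized -1.29). Mouse Reg3a, itself a gene of pancreas as well as gut, followed the enzymes: it read 6.19, 5.06, 5.19, 8.27 and 8.11 with transgenic flora and 5.10, 9.50, 9.30, 9.54 and 9.84 with wild-type flora. In bulk tissue, fewer cells of a type and less RNA per cell cannot be told apart. The part of this signal in the other differences was not tested beyond a fit with the pancreas level as a covariate, which also left 0 genes.

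Other marker lists were compared in the same way. The 22 smooth muscle genes averaged 8.82 to 9.68 in the transgenic-flora mice and 9.64 to 10.23 in the wild-type-flora mice, with a median change of -0.57 (quantile-normalized -0.29). At unadjusted p under 0.05, 15 of 22 were lower (11 after quantile normalization), where 39.5% of all genes in the brightest decile, which holds the list's median signal, were lower. After quantile normalization 10.3% of all genes were lower at that threshold. Myh11, smooth muscle myosin, read 9.63, 10.63, 10.88, 10.31 and 10.58 with transgenic flora and 11.33, 10.69, 11.58, 11.60 and 11.12 with wild-type flora. Tpm2, a tropomyosin of muscle, read 8.44, 8.83, 8.95, 8.43 and 8.35 with transgenic flora and 9.78, 8.80, 9.59, 10.15 and 9.68 with wild-type flora. Thus muscle read lower in most transgenic-flora colons, with the lowest wild-type-flora mouse, WT793, inside their range for both genes. With the muscle level as a covariate, 608 genes instead of 6856 were at unadjusted p under 0.05, and the median standard error was 0.18 instead of 0.13. That level nearly separates the groups, with only TG713 (9.68) above the lowest wild-type-flora mouse (9.64). The count was 2216 with the within-array SD, 4563 with the pancreas level and 5797 with the posterior Hox level as covariate. Posterior Hox genes, which mark position along the colon, averaged 6.43 ± 0.22 with transgenic flora and 6.36 ± 0.17 with wild-type flora. The distal markers Hoxb13 (9.30, 8.63, 9.30, 8.33 and 9.67 with transgenic flora, 10.13, 9.35, 6.89, 8.49 and 9.09 with wild-type flora) and Hoxd13 overlapped between the groups. The epithelial markers were bright in both groups: Epcam read 11.60 to 11.93 with transgenic flora and 11.65 to 12.06 with wild-type flora (-0.16; quantile-normalized 0.03), and Cdh1 differed by -0.24 (quantile-normalized -0.07).

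**Figure D2:**
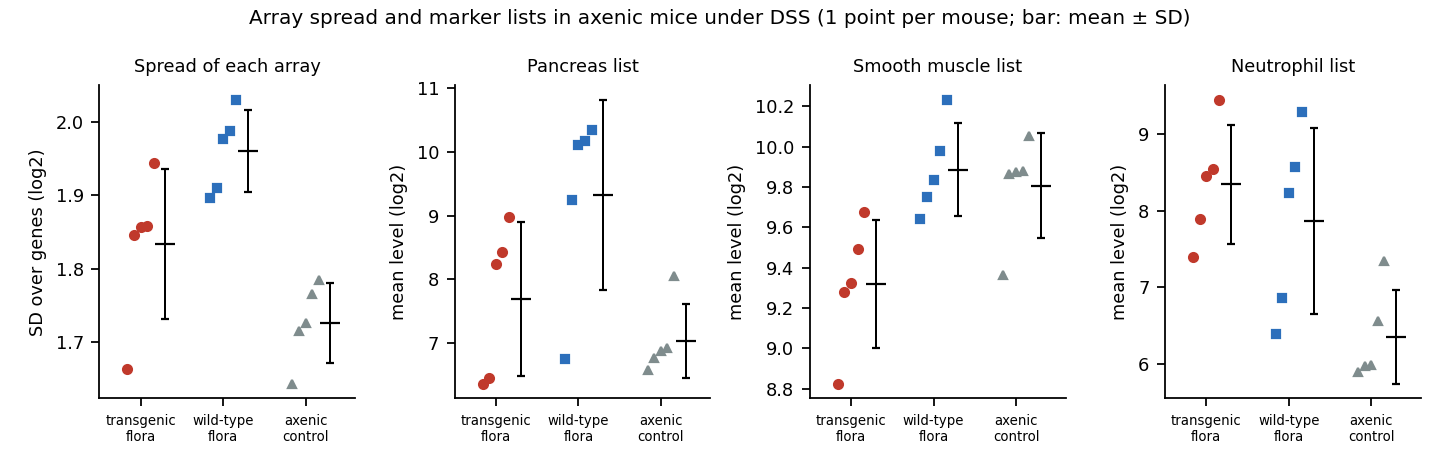
From left to right, the SD over all probe sets of each array and the mean log2 level of the pancreas, smooth muscle and neutrophil lists (y axes) in transgenic-flora, wild-type-flora and axenic control mice (x axis). Each point is a mouse and bars give mean ± SD, n = 5. Mouse WT880 is the low point of the pancreas panel in the wild-type-flora group, and the neutrophil list ranges from 7.39 to 9.45 with transgenic flora and from 6.39 to 9.29 with wild-type flora.

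Among single genes, the 10 lower ones with the smallest p were Ifi35, Atp5e, Snrpb, Psmb4, Gadd45g, Mrpl22, Fdps, H4c3, Mrps7 and Kars. Ifi35, an interferon-induced protein, read 7.59, 7.93, 7.58, 7.74 and 7.60 in transgenic-flora mice and 8.35, 8.21, 8.30, 8.46 and 8.38 in wild-type-flora mice. The groups did not overlap, and the change was -0.65 (SE 0.09, adjusted p = 0.0695; quantile-normalized -0.40, still without overlap). Axenic controls averaged 7.60 ± 0.25, within the transgenic-flora range. Gadd45g, a stress-induced growth arrest gene, read 6.41, 6.70, 6.88, 6.76 and 6.46 with transgenic flora and 7.40, 7.54, 7.30, 8.03 and 7.56 with wild-type flora. It differed by -0.92 (SE 0.15; quantile-normalized -0.89), without overlap on either scale. Mrpl22, a mitochondrial ribosomal protein, read 5.65, 5.93, 5.80, 6.06 and 5.70 with transgenic flora against 6.35, 6.37, 6.56, 6.76 and 6.60 with wild-type flora, a change of -0.70 (SE 0.11; quantile-normalized -0.81). Kars, the lysyl-tRNA synthetase, averaged 8.07 ± 0.23 with transgenic flora and 8.80 ± 0.14 with wild-type flora, without overlap on either scale (-0.73; quantile-normalized -0.44). Mrps7, another mitochondrial ribosomal protein, Snrpb of the spliceosome, Psmb4 of the proteasome, Atp5e of the ATP synthase, the histone H4c3 and Fdps did not overlap as deposited (changes -0.61 to -0.80) but did after quantile normalization (-0.27 to -0.49).

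Genes of the opposite direction were dim. Mmp12, a macrophage elastase, read 6.41, 6.66, 6.64, 6.62 and 6.28 in transgenic-flora mice and 5.79, 5.91, 5.96, 5.94 and 5.80 in wild-type-flora mice. It was higher by 0.64 (SE 0.10, adjusted p = 0.0695; quantile-normalized 0.51), with no overlap on either scale, and controls spanned 6.11 to 7.23. Cyp3a25, a drug-metabolising cytochrome, averaged 6.51 ± 0.13 with transgenic flora and 5.89 ± 0.17 with wild-type flora, again without overlap on either scale (0.62; quantile-normalized 0.49). Csta3, a cysteine protease inhibitor of the stefin family, averaged 5.53 ± 0.24 with transgenic flora and 4.89 ± 0.06 with wild-type flora (0.64; quantile-normalized 0.45). The other 7 of the 10 higher genes with the smallest p were the prolactin-family gene Prl7c1 (0.90, quantile-normalized 0.72), the trace amine receptor Taar9 (0.66, quantile-normalized 0.49) and 5 olfactory receptors (0.61 to 0.90, quantile-normalized 0.48 to 0.90), among them Olfr635 and Olfr1537. Olfactory receptors, which colon hardly expresses, read higher in 1010 of 1027 genes (median 0.30, quantile-normalized 0.13), a set looked at after its values were seen. In decile 2, which holds their median signal, 91.4% of all genes read higher, with a median of 0.20. Of the 20 genes with the smallest p in either direction, 19 did not overlap as deposited and 12 did not after quantile normalization, and all 20 kept their direction.

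**Figure D3:**
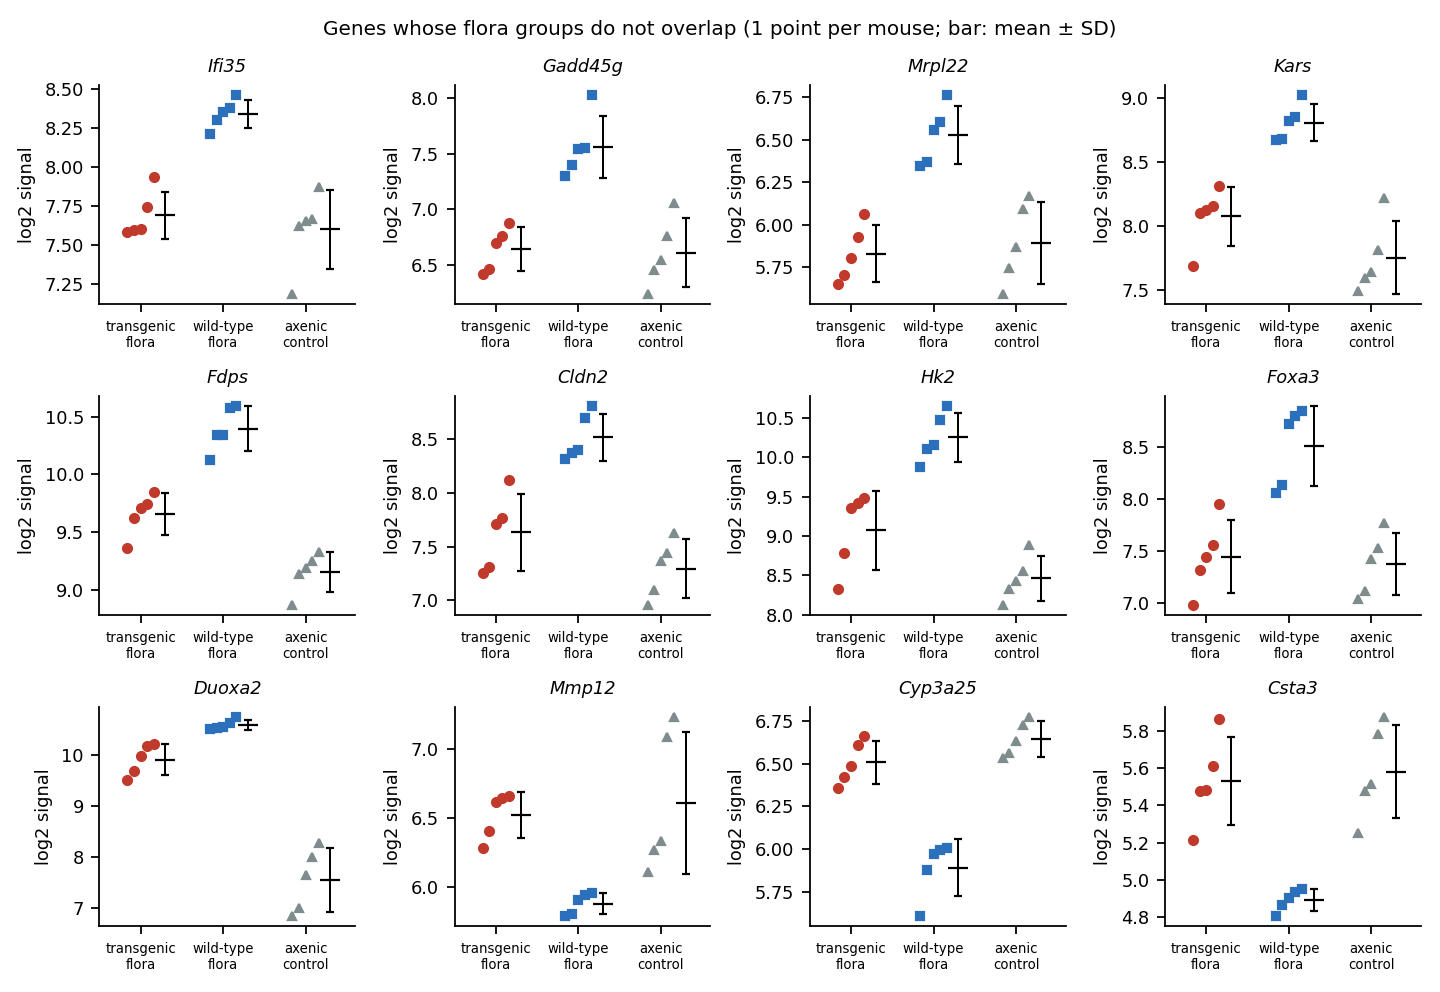
Log2 signal (y axes) of 12 genes that did not overlap between the flora groups, in transgenic-flora, wild-type-flora and axenic control mice (x axes); each point is a mouse and bars give mean ± SD, n = 5. All 5 transgenic-flora mice lie below all 5 wild-type-flora mice for the 9 genes from Ifi35 to Duoxa2 and above them for Mmp12, Cyp3a25 and Csta3.

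Interferon-stimulated genes read lower as a group. Of 20 measured, 19 had a change below 0, 12 were lower at unadjusted p under 0.05 and 3 did not overlap, with a median of -0.48. All genes of decile 8, which holds the list's median signal, had a median of -0.32, with 89.8% below 0 and 47.7% lower at unadjusted p under 0.05. After quantile normalization the list median was -0.34, beside -0.07 for that decile, with 6 lower at unadjusted p under 0.05 and 1 without overlap. Over all genes these 2 shares were 10.3% and 1.92%, and 4.45% were lower without overlap as deposited. The list mean per mouse was 6.93, 7.85, 7.23, 7.92 and 7.67 with transgenic flora and 7.88, 8.20, 7.86, 8.06 and 8.01 with wild-type flora, so mice TG922 and TG713 were the low ones and mouse TG632 lay within the other group. Controls lay at 6.89 to 7.36. Ifit2, which blocks translation of foreign RNA, read 5.28, 6.68, 5.48, 6.74 and 5.92 with transgenic flora and 6.88, 7.25, 7.12, 6.85 and 7.64 with wild-type flora. It differed by -1.13 (SE 0.29; quantile-normalized -1.17) with no overlap on either scale. Stat2, the transcription factor that carries type I interferon signals, averaged 8.16 ± 0.27 with transgenic flora and 8.66 ± 0.17 with wild-type flora, a change of -0.51 (quantile-normalized -0.19, where the groups overlapped). Oas1a, an RNA sensor, differed by -0.45 (quantile-normalized -0.17). Ifit1, chosen after its values were seen, read 6.45, 7.73, 6.53, 7.53 and 7.19 with transgenic flora against 8.14, 7.76, 7.48, 8.17 and 8.16 with wild-type flora (-0.85; quantile-normalized -0.77). Its neighbour Ifit3, also chosen that way, averaged 7.60 ± 0.53 with transgenic flora and 7.67 ± 0.33 with wild-type flora (-0.07; quantile-normalized 0.06). Of 13 antigen presentation genes 11 had a change below 0 (median -0.25, quantile-normalized -0.12). That share was no larger than the 93.5% of all genes in decile 9, which holds the list's median signal. All genes of decile 9 had a median of -0.37 (quantile-normalized -0.04). Psmb8, Psmb9 and Tap2, which process and carry peptides for MHC class I, differed by -0.81, -0.64 and -0.44 (quantile-normalized -0.59, -0.26 and -0.16).

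Promoters of 4 of these genes are shown because they carry the core of the interferon-stimulated response element, GAAA, any 2 bases and GAAA again, searched on both strands. The core lay in the 250 bases ahead of the start in 978 of 32851 RefSeq promoters (2.98%) and in 7 of the 13 interferon list genes with a promoter in that table. The first share counts promoters and the second counts genes with a match in any of their promoters, so their units differ. Matches are in capitals in the 240 bases before the start, read 5′ to 3′ along the gene from RefSeq on GRCm38.p6. The windows are Stat2 chr10:128270258-128270497 (plus strand), Oas1a chr5:120907526-120907765 (minus strand), Ifit1 chr19:34640649-34640888 (plus strand) and Ifit3 chr19:34583289-34583528 (plus strand). All matches shown lie on the opposite strand except those of Oas1a, which overlap each other.
Stat2: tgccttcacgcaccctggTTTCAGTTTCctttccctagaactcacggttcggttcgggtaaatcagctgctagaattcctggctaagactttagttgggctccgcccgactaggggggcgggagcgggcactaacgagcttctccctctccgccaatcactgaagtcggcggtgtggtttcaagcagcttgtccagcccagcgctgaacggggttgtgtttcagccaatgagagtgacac
Oas1a: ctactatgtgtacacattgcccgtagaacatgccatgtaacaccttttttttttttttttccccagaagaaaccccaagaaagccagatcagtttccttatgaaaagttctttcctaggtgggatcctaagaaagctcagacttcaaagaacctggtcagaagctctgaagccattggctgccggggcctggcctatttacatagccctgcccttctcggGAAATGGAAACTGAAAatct
Ifit1: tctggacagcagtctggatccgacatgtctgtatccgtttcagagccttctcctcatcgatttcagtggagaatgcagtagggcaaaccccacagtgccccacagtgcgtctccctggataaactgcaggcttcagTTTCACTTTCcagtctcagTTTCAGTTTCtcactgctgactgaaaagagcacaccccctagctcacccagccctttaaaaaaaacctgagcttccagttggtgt
Ifit3: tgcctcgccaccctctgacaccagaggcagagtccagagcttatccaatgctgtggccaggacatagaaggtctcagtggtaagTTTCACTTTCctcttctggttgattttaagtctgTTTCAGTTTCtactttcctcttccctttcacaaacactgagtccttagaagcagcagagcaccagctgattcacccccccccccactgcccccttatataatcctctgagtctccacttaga
The promoters of Ifit1 and Ifit3 each hold 2 matches, though the genes differed by -0.85 and -0.07. A match describes the sequence only.

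Sterol synthesis and respiratory chain genes read lower too. All 16 sterol synthesis genes had a change below 0 (median -0.54, quantile-normalized -0.26), 13 were lower at unadjusted p under 0.05 and 7 did not overlap (4 and 2 after quantile normalization). Over all genes, 4.45% were lower without overlap as deposited. After quantile normalization that share was 1.92%, and 10.3% were lower at unadjusted p under 0.05. Fdps, farnesyl diphosphate synthase, read 9.36, 9.74, 9.70, 9.62 and 9.85 in transgenic-flora mice and 10.34, 10.13, 10.34, 10.58 and 10.59 in wild-type-flora mice. Pmvk, phosphomevalonate kinase, read 7.03, 6.80, 6.88, 6.89 and 6.98 with transgenic flora and 7.57, 7.17, 7.39, 7.63 and 7.65 with wild-type flora. It kept its separation after quantile normalization (-0.57; quantile-normalized -0.49), which Mvd, the next enzyme of the pathway (-0.49; quantile-normalized -0.16), did not. All 24 respiratory chain genes also had a change below 0 (median -0.55, quantile-normalized -0.28), with 19 lower at unadjusted p under 0.05 and 9 after quantile normalization. Ndufa4 (-0.97; quantile-normalized -0.63), Ndufa1 (-0.90; quantile-normalized -0.62) and Ndufv1 (-0.68; quantile-normalized -0.32) are subunits of that chain. Hk2, the glucose-trapping hexokinase, read 8.33, 9.41, 8.78, 9.48 and 9.35 with transgenic flora and 9.87, 10.10, 10.15, 10.47 and 10.65 with wild-type flora (-1.18; quantile-normalized -0.85), with no overlap on either scale. Hk2 had the lowest change of the 20 glycolysis and hypoxia genes, of which 19 had a change below 0 (median -0.35, quantile-normalized -0.10, but 0.05 with arrays scaled to 1 SD). These 3 lists have their median signal in the brightest decile, where all genes had a median of -0.33 (quantile-normalized -0.02), 92.5% read below 0 and 39.5% were lower at unadjusted p under 0.05.

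Cell cycle genes followed the same direction at lower brightness. All 26 had a change below 0 (-0.82 to -0.15, median -0.54, quantile-normalized -0.33), 17 at unadjusted p under 0.05 and 11 after quantile normalization. Over all genes, 10.3% were lower at that threshold after quantile normalization. The list's median signal percentile was 70.5, in decile 8, where all genes had a median of -0.32 (quantile-normalized -0.07) and 47.7% were lower at unadjusted p under 0.05 as deposited. Aurkb, a mitotic kinase, averaged 8.54 ± 0.32 with transgenic flora and 9.29 ± 0.20 with wild-type flora, and Mcm5 of the replicative helicase differed by -0.57 (quantile-normalized -0.28). Mki67, the proliferation antigen, read 8.62 in mouse TG922 and 9.75 to 10.06 in the other transgenic-flora mice, against 9.87 to 10.42 with wild-type flora. Its change was -0.46 (quantile-normalized -0.13), with overlap. Myc, the growth-promoting transcription factor, read 7.46, 8.99, 8.70, 8.89 and 8.50 with transgenic flora and 9.13, 9.57, 9.18, 9.65 and 9.41 with wild-type flora (-0.88; quantile-normalized -0.61), without overlap on either scale. The stem cell receptor Lgr5 differed by -0.38 (quantile-normalized -0.46) and the crypt receptor Ephb3 by -0.41 (quantile-normalized -0.32). Myc, Lgr5 and Ephb3 belong to a list of 17 stem cell and Wnt genes, of which 13 had a change below 0 (median -0.30, quantile-normalized -0.19). In decile 7, which holds its median signal, 75.1% of all genes did (median -0.21, quantile-normalized -0.03). At unadjusted p under 0.05, 7 of the list were lower and 1 higher on either scale, beside 34.2% and 4.77% of that decile as deposited.

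Secretory and barrier genes of the epithelium were read as follows. Foxa3, a goblet cell transcription factor, read 6.98, 7.95, 7.31, 7.44 and 7.55 in transgenic-flora mice and 8.72, 8.13, 8.06, 8.79 and 8.84 in wild-type-flora mice (-1.06; quantile-normalized -0.89), with no overlap on either scale. Spdef, the other goblet regulator, differed by -0.83 (quantile-normalized -0.47), whereas the mucin Muc2 read 13.22 to 13.86 with transgenic flora and 13.42 to 13.88 with wild-type flora (-0.19; quantile-normalized -0.14; 0.59 with arrays scaled to 1 SD, so its direction depends on the scaling). Of 18 goblet genes 17 had a change below 0 (median -0.35). As deposited this was close to the 92.5% and the median of -0.33 of all genes in the brightest decile, where the list lies. After quantile normalization the list median was -0.20, beside -0.02 for that decile. Cldn2, a pore-forming claudin of crypts and inflamed epithelium, read 7.25, 8.12, 7.31, 7.70 and 7.77 with transgenic flora against 8.31, 8.40, 8.37, 8.80 and 8.70 with wild-type flora (-0.89; quantile-normalized -0.67), again without overlap on either scale. Marveld3 and Cldn3, other tight junction genes, differed by -0.59 and -0.38 (quantile-normalized -0.28 and -0.11), and Cldn3 by 0.10 with arrays scaled to 1 SD. Of 19 tight junction genes 17 had a change below 0 and 14 were lower at unadjusted p under 0.05 (median -0.38, quantile-normalized -0.11). In decile 9, where the list lies, the median of all genes was -0.37 (quantile-normalized -0.04) and 49.3% were lower at that threshold as deposited. Abcg2, a xenobiotic pump, Prdx4, a peroxidase of the endoplasmic reticulum, and the chaperone Dnajb1 kept their separation on both scales (-0.77, -0.74 and -0.90; quantile-normalized -0.66, -0.75 and -0.79). They come from lists of 36 xenobiotic, 21 antioxidant and 12 heat shock genes. As deposited 1, 1 and 3 of these were lower without overlap, beside 4.45% of all genes. After quantile normalization 1 of each list was, beside 1.92% of all genes. Among the xenobiotic genes 2 were higher without overlap as deposited and 1 after quantile normalization. Absorptive colonocyte genes had 28 of 34 changes below 0 (median -0.35, quantile-normalized -0.11), no larger a share than the 92.5% of all genes in the brightest decile, where they lie. The water channel Aqp8 had the lowest change of that list (-1.19; quantile-normalized -0.84). Fabp2, a fatty acid binding protein best known from the small intestine, read 6.16, 8.48, 5.97, 7.17 and 5.51 with transgenic flora and 7.81, 6.24, 9.71, 9.56 and 10.11 with wild-type flora (-2.03; quantile-normalized -2.02), with overlap, while 11 of the 17 genes of the small intestine list had a change above 0 (median 0.19, quantile-normalized 0.03).

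Epithelial defence genes were covered by 3 lists. Of 21 antimicrobial genes 9 had a change above 0 and 12 below (median -0.03, quantile-normalized 0.05), with 1 higher and 1 lower at unadjusted p under 0.05. Of 12 oxidant enzyme genes 9 had a change below 0 (median -0.25, quantile-normalized -0.07), and of 25 microbial sensing genes 20 did (median -0.23, quantile-normalized -0.03). Among all genes of the deciles that hold these lists, 92.5% (decile 10, the antimicrobial and oxidant lists) and 93.5% (decile 9, the sensing list) read below 0. Duoxa2, which matures the peroxide-forming oxidase Duox2, read 9.51, 10.16, 9.68, 10.20 and 9.98 in transgenic-flora mice and 10.74, 10.54, 10.52, 10.62 and 10.51 in wild-type-flora mice, with controls at 6.85 to 8.28. It differed by -0.68 without overlap (SE 0.14, adjusted p = 0.0695), but overlapped after quantile normalization (-0.33). Duox2 itself differed by -0.63 (quantile-normalized -0.29), and the colonic oxidase Nox1 by -1.39 (quantile-normalized -1.20), with 6.86 in mouse TG922 the lowest of all. Aim2, a sensor of cytosolic DNA, differed by -0.76 without overlap (quantile-normalized -0.41). Reg3g, a lectin that kills Gram-positive bacteria, read 6.63, 11.77, 5.93, 11.10 and 8.18 with transgenic flora and 7.37, 10.09, 12.72, 12.53 and 12.05 with wild-type flora. The change of -2.23 (SE 1.30, adjusted p = 0.220; quantile-normalized -2.17) was therefore smaller than the range within each group. Its partner Reg3b read 8.53, 11.51, 6.36, 10.68 and 9.94 with transgenic flora and 6.84, 10.31, 12.84, 12.52 and 12.05 with wild-type flora. It differed by -1.51 (quantile-normalized -1.29), but by 0.30 with the pancreas level as a covariate. Retnlb, a goblet cell antibacterial protein, averaged 10.53 ± 1.12 with transgenic flora and 11.47 ± 0.99 with wild-type flora (-0.94; quantile-normalized -0.67), against 5.53 ± 0.42 in axenic controls. Plet1 (11.24 to 13.18 with transgenic flora, 12.68 to 13.38 with wild-type flora) and Clca4b (12.24 to 13.09 with transgenic flora, 12.36 to 13.03 with wild-type flora), both tied to wounded epithelium, also lay above the controls (Plet1 7.25 to 7.94, Clca4b 6.03 to 9.93).

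Most neutrophil and acute phase genes had a change above 0, but few at unadjusted p under 0.05. Of 18 neutrophil genes 17 had a change above 0 (median 0.41, quantile-normalized 0.44), where 24.9% of all genes of decile 7 did. At unadjusted p under 0.05, 1 was higher and 1 lower, beside 4.77% higher and 34.2% lower among all genes of decile 7. Over all deciles these shares were 13.6% and 20.8%. No neutrophil gene was without overlap. The list mean was 7.39, 8.54, 9.45, 8.45 and 7.89 with transgenic flora and 6.39, 9.29, 8.23, 8.57 and 6.85 with wild-type flora, so the lowest 2 mice, WT880 and WT098, were both of the wild-type-flora group. The same pair was low for Lcn2, an iron-sequestering protein of neutrophils and inflamed epithelium: it read 11.43, 12.55, 12.93, 12.75 and 11.90 with transgenic flora and 8.78, 12.94, 12.27, 12.30 and 9.83 with wild-type flora. Lcn2 differed by 1.09 (SE 0.72, adjusted p = 0.270; quantile-normalized 1.28). The calprotectin subunit S100a8 read 8.98, 10.31, 11.79, 10.67 and 10.10 with transgenic flora and 7.02, 11.51, 10.22, 10.73 and 8.53 with wild-type flora (0.77, quantile-normalized 1.07), and the acute phase gene Saa3 differed by 0.83 (quantile-normalized 1.01). Il1b, an early cytokine, did not follow them (8.45, 11.63, 11.61, 10.85 and 10.37 with transgenic flora, 9.07, 11.68, 11.47, 10.88 and 10.01 with wild-type flora, a change of -0.04, quantile-normalized 0.25). Cd177, the only neutrophil list gene below 0, read 9.70 to 10.58 with transgenic flora and 10.39 to 11.13 with wild-type flora (-0.68, quantile-normalized -0.35). Of 17 acute phase genes 13 had a change above 0 (median 0.19, quantile-normalized 0.33), where 6.48% of all genes of decile 9 did, with 2 higher and 1 lower at unadjusted p under 0.05 and Serpina3n at 0.85 (quantile-normalized 0.94). In that decile 1.16% of all genes were higher and 49.3% lower at unadjusted p under 0.05.

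**Figure D4:**
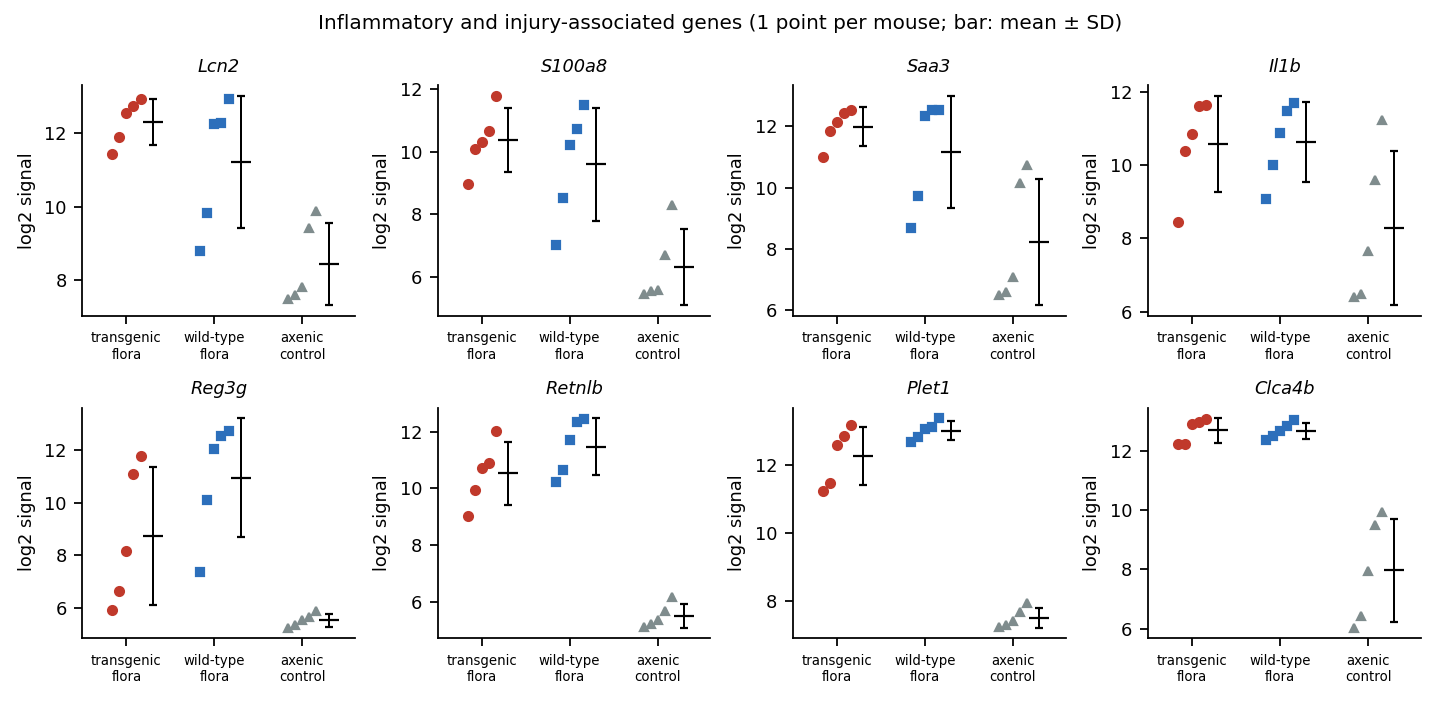
Log2 signal (y axes) of 8 inflammation and injury genes in transgenic-flora, wild-type-flora and axenic control mice (x axes); each point is a mouse and bars give mean ± SD, n = 5. The flora groups overlap for all 8 genes, while Retnlb, Plet1 and Clca4b lie above every control in both.

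Lymphoid and macrophage lists went both ways. Changes were above 0 for 10 of 18 macrophage genes (median 0.06, quantile-normalized 0.23), 12 of 19 B and plasma cell genes (median 0.12, quantile-normalized 0.15), 9 of 14 lymphoid follicle genes (median 0.09, quantile-normalized 0.13) and 11 of 24 chemokine genes (median 0.00, quantile-normalized 0.15). The same held for 12 of 22 T and NK cell genes (median 0.02, quantile-normalized -0.06). At unadjusted p under 0.05, 1 gene each of the B and plasma cell and the T and NK cell lists was higher. In each of the other lists 3 were, beside 13.6% of all genes. That share was 1.81% in decile 8 (macrophage and chemokine lists), 4.77% in decile 7 (B and plasma cells) and 10.1% in decile 6 (lymphoid follicle). In decile 4, where the T and NK cell list lies, it was 22.5%. Lower at that threshold were 1 lymphoid follicle gene and 1 chemokine gene. Changes in the lymphoid follicle list ran from -2.36 to 0.71. Some members of these lists with the smallest p read higher with transgenic flora. Cxcl13, the chemokine that gathers B cells into follicles, read 12.07, 12.38, 12.31, 12.62 and 12.73 with transgenic flora against 10.98, 12.52, 11.82, 11.73 and 11.52 with wild-type flora (0.71, SE 0.24, adjusted p = 0.0863; quantile-normalized 0.90), with only wild-type-flora mouse WT793 inside the transgenic-flora range. Cx3cr1, a receptor of resident macrophages, read 7.40 to 7.91 with transgenic flora and 7.06 to 7.45 with wild-type flora (0.38; quantile-normalized 0.57, without overlap), and Trem2, a lipid receptor of macrophages, differed by 0.43 (quantile-normalized 0.66). The plasma cell gene Mzb1 differed by 0.51 (quantile-normalized 0.70). Igha, the IgA heavy chain, looked at after its values were seen, read 10.27, 11.88, 12.29, 11.10 and 11.74 with transgenic flora and 10.79, 10.52, 10.16, 10.20 and 10.68 with wild-type flora, with mouse TG922 alone inside the other range (0.99; quantile-normalized 1.28, without overlap). Axenic controls had Igha at 8.65 to 9.14. The IgA joining chain Jchain differed by 0.31 (quantile-normalized 0.63), with overlap. The largest upward change over all genes was that of Alb, serum albumin, singled out after its values were seen. It read 6.32, 9.11, 11.15, 10.39 and 6.43 with transgenic flora and 6.50, 6.42, 6.17, 8.80 and 6.25 with wild-type flora. Mice TG749, TG713 and TG632 were the high ones in the transgenic-flora group and mouse WT597 in the other, with a change of 1.85 (SE 0.94, adjusted p = 0.174; quantile-normalized 1.82).

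**Figure D5:**
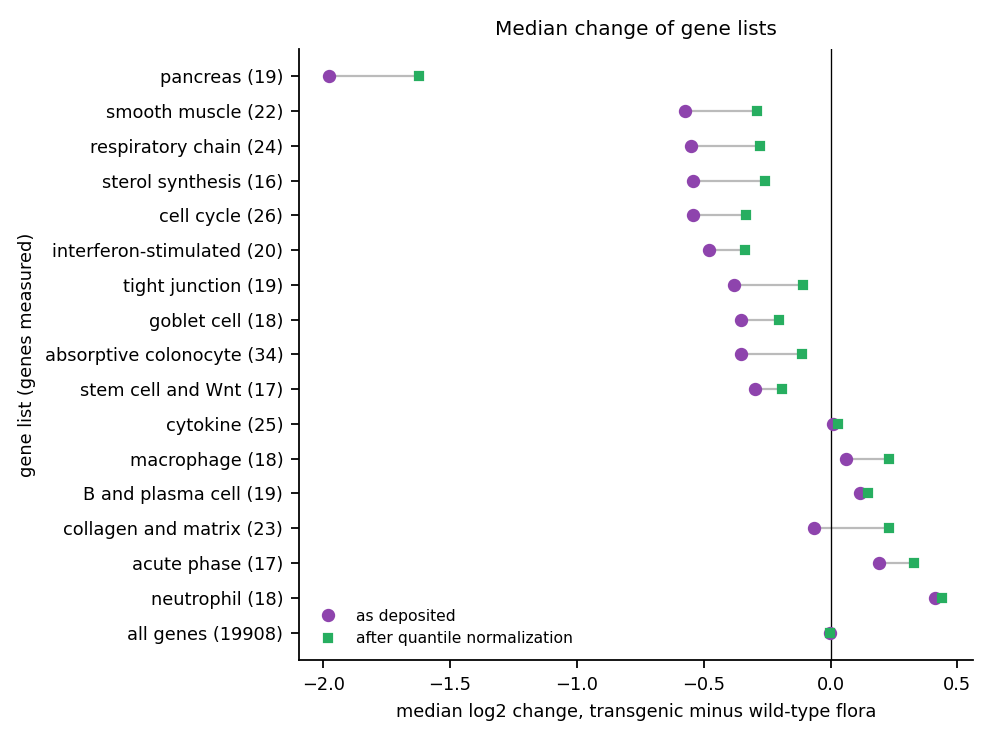
Median log2 change, transgenic-flora minus wild-type-flora mice (x axis), of 16 gene lists and of all genes (y axis, genes measured in brackets), as deposited (circles) and after quantile normalization (squares). The pancreas list lies lowest at -1.98, or -1.62 after quantile normalization, the neutrophil list highest at 0.41 or 0.44, and the collagen list changes sign.

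The donor effect was then set beside the genotype effect in conventional mice under DSS, which comes from other mice. There limma called 1 of 19908 genes (0.00502%), Nxpe5, a gene of the neurexophilin and PC-esterase family. It read 9.79, 10.20, 9.75, 9.99 and 10.28 in conventional transgenic mice and 6.35, 6.18, 6.76, 6.22 and 5.99 in conventional wild-type mice, a change of 3.70 (SE 0.16, adjusted p = 2.0e-06). Recipients read low with either flora, at 6.77, 6.44, 6.69, 6.66 and 6.68 with transgenic flora and 6.19, 7.02, 6.40, 6.44 and 6.13 with wild-type flora. The test of the difference, flora effect minus genotype effect, called 15 genes (0.0753%), all with a difference below 0, with Nxpe5 at -3.49 (adjusted p = 6.4e-08). For 14 of the 15 the flora effect was below 0, and for all 15 the genotype effect was above 0. Picking genes by a difference below 0 favours these signs, so they are not a separate result. Tst, a sulfide-handling sulfurtransferase, had flora and genotype effects of -0.93 and 0.89, a difference of -1.82 (SE 0.27, adjusted p = 0.0088). The potassium channel Kcnn4 had -0.61 and 0.62 and the crypt receptor Ephb3 -0.41 and 0.69, with differences of -1.23 and -1.10 (adjusted p = 0.0088 each). Gstt3, a glutathione transferase, was called with -0.34 and 0.85, though its flora effect was 0.04 after quantile normalization. Lcn2 had a flora effect of 1.09 and a genotype effect of -2.44, and Saa3 a flora effect of 0.83 and a genotype effect of -3.06, but neither difference passed (Lcn2 3.53, SE 1.16, adjusted p = 0.12; Saa3 3.89, adjusted p = 0.10). Reg3g read lower in both settings (-2.23 with flora, -4.40 in conventional mice) and did not pass in either. The count of 15 moved to 1011 without conventional wild-type mouse 52 and to 491, 156 and 109 without flora mice TG749, WT793 and WT639. It moved to 61 and 32 without conventional wild-type mice 53 and 55, and to 9 without conventional wild-type mouse 56 or any of flora mice WT597, WT098, TG632 and TG446.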

How the data were processed

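Affymetrix Mouse Gene 1.0 ST arrays measured total RNA of 35 mouse colons, 1 array per mouse. The deposited values are log2 signals, which the authors made with RMA in Affymetrix Expression Console 1.1 per the submitters' processing notes, and they ranged from 3.78 to 14.4. RMA normally equalises arrays at the probe level, yet the spread over probe sets still differed between these arrays. Of 28090 probe sets, 21639 had 1 gene symbol in the platform annotation, 1539 had several and 4912 were not listed. Each gene took its probe set with the highest mean over all arrays, which left 19908 genes, of which 990 had more than 1 probe set. The 10 flora arrays correlated pairwise at 0.878 to 0.990.

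Groups followed the titles. limma 3.58.1 (R 4.3.3; lmFit and eBayes, two-sided) was fitted to the 10 arrays, and to 20 arrays for the difference from the genotype effect, with Benjamini-Hochberg adjustment over all genes and a threshold of 0.05. The fit was also run on simulated data with independent normal noise for each gene. Such data lack shifts shared by many genes, so that run does not cover them. SE is the moderated standard error, and adjusted p-values come from these fits. Without stated batches or cages, p-values measure the spread between these mice only, and 5 arrays per group limit the precision.

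Quantile normalization was run on the 10 deposited arrays. Array spread and pancreas level were compared by exact permutation over all assignments (smallest possible p = 0.00794). The 47 gene lists held 931 genes, of which 852 were measured, and were described by counts and medians. Members and lists were chosen with earlier results of these data known. Named genes were the 10 with the smallest p per direction, up to 3 members of each list with the smallest p, a set of colitis and marker genes and the genes called in the test of the difference. Alternatives were other sample sets, array weights, variance models, normalizations, covariates, a filter at the 40th percentile and leaving out each mouse. Python 3.11.15 with pandas 2.3.3, scipy 1.17.1 and matplotlib 3.10.9 was used.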

Additional observations from a re-analysis of the deposited data

Results flagged for a closer look

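Among 198 groups of 5 mice tested, 15 held a mouse far from the other 4, where chance gives about 1 in 20. Transgenic-flora mouse TG922 stood apart low for Mcm5 (7.66), Mki67 (8.62) and Nos2 (8.73), mouse TG713 for Lgr5 (5.77) and mouse TG749 for Trem2 (7.53). Wild-type-flora mouse WT880 stood apart low for Reg3a (5.10), Try10 (5.69), Cpb1 (5.97) and Cela3b (6.45), and mouse WT793 for Muc2 (13.42) and Sycn (11.22). Wild-type-flora mouse WT639 was low for Atp5e (8.56) and Nox1 (9.37), and mouse WT597 was low for Olfr1537 (4.20) and high for Alb (8.80).

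The flora effect and the genotype effect under DSS differed by the test of the difference for 15 genes, each at adjusted p under 0.05 in limma. The differences were -3.49 for Nxpe5, -2.02 for Flnc, -1.92 for Gstm3, -1.82 for Tst, -1.45 for Hid1, -1.31 for Pxylp1, -1.24 for Emp2, -1.23 for Kcnn4, -1.18 for Gstt3, -1.15 for Fbxo36, -1.10 for Ephb3, -1.07 for Gadd45g, -1.06 for Kcnq1, -0.97 for Farp1 and -0.79 for Baiap2l2.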

How the results depend on the processing

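The count of genes passing in limma between the flora groups was 0 in the comparison as reported (6856 at unadjusted p under 0.05). It was 1927 with all 35 arrays in 1 model, 1317 with the 3 axenic groups in 1 model and 4886 with array weights. With 1 mouse left out it ranged from 0 to 4700. It stayed at 0 with trend and robust variance, quantile normalization, averaged probe sets, the 40th percentile filter and covariates for spread, pancreas, posterior Hox or smooth muscle level. Of the alternatives chosen after seeing the data, scaling every array to 1 SD and quantile normalization with array weights gave 0, quantile normalization of all 35 arrays gave 3, and quantile normalization with 1 mouse left out gave 4 without transgenic-flora mouse TG749 and 0 without any other. The array weights and the fit without mouse TG749 shared 4174 genes, 85.4% and 88.8% of their calls. The difference from the genotype effect was called for 15 genes, 2800 with array weights, and 9 to 1011 with 1 mouse left out. With trend and robust variance and with quantile normalization (chosen after seeing the data) it was 11 and 13, and 1 of those 13 had a difference above 0. The pancreas difference of -1.63 ranged from -2.27 to -1.30. The cause of these shifts was not tested. Of 2320 recomputed values for 97 named genes, 246 passed where the reported value had not, 156 moved by more than 1 SD, and 49, in 16 genes, changed sign without passing. As the reported flora comparison called 0 genes, there was no called value that could reverse. With the pancreas level as a covariate Reg3b, which is not on the pancreas list, turned to 0.30. Cpb1 turned to 0.88, Cela3b to 0.10 and Prss2 to 0.19. These enzymes belong to the list whose mean is that covariate, so most of their change is removed by construction. With arrays scaled to 1 SD Muc2 turned to 0.59, Clca1 to 0.41 and Cldn3 to 0.10. No paired analysis was possible because the groups share no replicate numbers.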
